A study of Mus musculus with 12 samples.

Results

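The mitochondrial ribosomal protein genes, the nuclear genes with symbols starting Mrpl or Mrps, were described in mouse heart across 4 groups of 3 libraries. They were taken by symbol, with a minimum mean of 1 CPM (a gene's counts relative to its library's total, the total being scaled by the trimmed mean of M values, TMM) over the 12 libraries. This gave 78 of the 17397 genes in the table, 49 with an Mrpl symbol (large subunit) and 29 with an Mrps symbol (small subunit), and all 78 passed the filter on low counts that left 12778 genes for testing. All mice were wild-type male C57BL/6J mice, 8 weeks old when they were divided. Control mice were given saline and were not trained, and trained mice ran on a treadmill for 5 days a week over 4 weeks, after the adaptation week at 12 m/min for 35 min following a warm-up. Tumour mice were not trained and were injected in the tail vein, from week 2, with 100000 cells of the mouse melanoma line B16F10, and tumour trained mice had both. The model places melanoma cells in the blood, and the labels name heart tissue, not sorted cells. The labels do not say which libraries came from separate mice, so p-values measure the spread between these libraries.

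The mitochondrial ribosome translates the few messages of the mitochondrial genome, all of which encode core subunits of the oxidative phosphorylation chain. Its RNAs are made inside the organelle, whereas every one of its proteins is encoded in the nucleus, translated in the cytosol and imported. The small subunit reads the message and the large subunit joins the amino acids and feeds the new chain to the inner membrane. Heart muscle is rich in mitochondria, and inherited defects of several members, among them the genes for MRPL3, MRPL44 and MRPS22, cause cardiomyopathy in children.

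The promoters of 5 members are printed as examples. Mrpl34, Mrpl12 and Mrps18a were lower in tumour libraries 1 and 2, Mrps10 was higher there, and Mrpl50 had its highest mean in the tumour trained group. Each window runs from 250 bases before to 50 bases after the start in RefSeq, build GRCm38.p6, at chr8:71464676-71464975 (plus strand) for Mrpl34, chr11:120484387-120484686 (plus) for Mrpl12, chr17:46110754-46111053 (plus) for Mrps18a, chr17:47368947-47369246 (plus) for Mrps10 and chr4:49521034-49521333 (minus) for Mrpl50. Capitals mark a match to 1 of the 5 motifs searched on both strands.
Mrpl34: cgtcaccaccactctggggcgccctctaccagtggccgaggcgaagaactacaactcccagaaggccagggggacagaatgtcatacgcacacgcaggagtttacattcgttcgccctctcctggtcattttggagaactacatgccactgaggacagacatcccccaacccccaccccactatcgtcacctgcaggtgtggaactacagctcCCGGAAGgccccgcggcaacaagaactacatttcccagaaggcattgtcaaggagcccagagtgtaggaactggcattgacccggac
Mrpl12: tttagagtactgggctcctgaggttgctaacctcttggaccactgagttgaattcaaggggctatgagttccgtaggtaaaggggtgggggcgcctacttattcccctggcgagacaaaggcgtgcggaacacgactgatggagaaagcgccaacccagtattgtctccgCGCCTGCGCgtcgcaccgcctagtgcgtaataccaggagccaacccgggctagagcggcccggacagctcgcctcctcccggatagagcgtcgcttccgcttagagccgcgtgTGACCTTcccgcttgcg
Mrps18a: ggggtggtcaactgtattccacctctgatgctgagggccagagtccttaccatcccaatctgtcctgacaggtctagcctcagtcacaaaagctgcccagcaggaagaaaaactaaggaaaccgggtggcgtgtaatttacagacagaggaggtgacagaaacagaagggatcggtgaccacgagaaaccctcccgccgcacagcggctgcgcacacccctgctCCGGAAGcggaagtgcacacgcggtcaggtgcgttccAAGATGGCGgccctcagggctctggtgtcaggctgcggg
Mrps10: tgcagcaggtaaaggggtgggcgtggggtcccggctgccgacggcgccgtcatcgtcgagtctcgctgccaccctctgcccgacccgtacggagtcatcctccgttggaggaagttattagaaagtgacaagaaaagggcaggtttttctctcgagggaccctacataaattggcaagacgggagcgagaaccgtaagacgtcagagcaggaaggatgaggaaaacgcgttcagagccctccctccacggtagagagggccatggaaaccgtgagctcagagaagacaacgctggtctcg
Mrpl50: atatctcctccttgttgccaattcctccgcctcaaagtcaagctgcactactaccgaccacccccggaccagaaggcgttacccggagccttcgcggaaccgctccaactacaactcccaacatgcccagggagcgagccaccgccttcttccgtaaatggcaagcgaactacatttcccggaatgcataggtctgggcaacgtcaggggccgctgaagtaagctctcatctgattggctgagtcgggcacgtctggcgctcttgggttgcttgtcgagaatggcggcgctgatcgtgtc

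The capitals in Mrpl34 are an ETS motif (CCGGAAG) at position -37, counted from 0 at the start. Mrpl12 had an NRF1 motif (GCGCANGCG) at -80 and an ERR site (AAGGTCA) at 33, both read on the other strand. Mrps18a had an ETS motif at -26 and a YY1 motif (AAGATGGCG) at 11. No match to these 4 motifs or to the E-box (CACGTG) lay in the windows of Mrps10 and Mrpl50. Of the 78 members, 69 had a promoter in the RefSeq table. The ETS motif was in 26 of them (37.7%), against 19.6% of the promoters of genes tested and 9.93% of all 27025 genes with a promoter. YY1 was in 8 members (11.6%), against 3.47% of genes tested and 1.64% of all. NRF1 was in 16 (23.2%), against 15.1% and 7.03%. The ERR site was in 4 (5.8%), against 3.82% and 5.38%, and the E-box was in 5 (7.25%), against 11.7% and 8.09%. A total of 24 members held none of the 5. The 5 printed windows do not stand for the members as a whole. Mrpl28 and Mrpl55 held none of the 5 motifs, and their log2 fold changes in tumour against control were -0.73 and -0.72. Mrps22 and Mrpl17 held an ETS motif and had 0.19 and 0.055. These matches describe letters in a window, and their relation to the fold changes was not tested.

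Library totals ranged from 8843909 to 13344847 counts, and the lowest count of any member in any library was 137 (Mrpl47). Tumour libraries 1 and 2 stood apart from the other 10. The 7 melanocyte and melanoma markers reached sums of 9402 CPM (tumour 1), 4775 CPM (tumour 2) and 81.05 CPM (tumour 3), against 47.4 to 81.7 CPM in the other 9 libraries, in which Tyrp1 was at 0. For the 5 of these markers that were tested, the median log2 difference to the control mean was 8.811, 8.339 and 0.924 in tumour 1, 2 and 3. A small constant was added to CPM for these medians, which ran from -0.176 to 0.134 in the other 9 libraries. Tumour 3 was thus above them by this median though not by the sum, and whether it holds melanoma transcripts was not tested. The 20 cardiomyocyte markers reached 31040 CPM (tumour 1), 86610 CPM (tumour 2) and 160100 CPM (tumour 3), against 152600 to 169000 CPM elsewhere, and none was at 0 in any group. The 10 proliferating cell markers had sums of 1211, 451.2 and 11.1 CPM in the 3 tumour libraries in order, and of 6.65 to 18.1 CPM elsewhere, with none at 0. The 8 endothelial markers summed to 669, 1346 and 2100 CPM in the 3 tumour libraries, against 1672 to 1938 CPM elsewhere. In the same order the 8 fibroblast markers had 1429, 2332 and 1030 CPM (912 to 1259 CPM elsewhere), the 8 macrophage markers 366, 632 and 334 CPM (315 to 452 CPM) and the 6 erythrocyte markers 431, 570.5 and 2000 CPM (615 to 3458 CPM), and none was at 0. The protocol names livers and the tissue label heart; the 7 hepatocyte markers summed to at most 9 CPM. In bulk tissue, fewer cells of a type and less RNA per cell cannot be told apart, and so every comparison with the tumour group below is given with and without these libraries.

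Both subunits were lower in tumour libraries 1 and 2 and near the control level in the other 10. Values here are the median over members of log2 CPM minus the mean log2 CPM of the 3 control libraries. In tumour 1 this median was -0.73 for the large and -0.69 for the small subunit, which is 0.604 and 0.62 of the control level. Tumour 2 had -0.51 and -0.46, which is 0.704 and 0.727 of the control level. Tumour 3 had -0.02 and 0.03. All 9 other libraries, controls included, lay between -0.11 and 0.11 for both subunits. The median over all genes tested was 0.10 in tumour 1 and 0.09 in tumour 2. Below all 3 control libraries lay 68 of the 78 members in tumour 1 (87.2%, against 42% of all genes tested), 69 in tumour 2 (88.5%, against 33.6%) and 16 in tumour 3 (20.5%, against 29%). The members were not shifted evenly. They ran from -1.64 to 0.60 in tumour 1 and from -0.94 to 0.36 in tumour 2, with SDs over members of 0.52 and 0.28, against 0.13 in tumour 3, 0.16 to 0.21 in the trained, 0.15 to 0.18 in the tumour trained and 0.07 to 0.11 in the control libraries, whose own mean is the reference. These directions rest on TMM scaling and flip when libraries are scaled to the cardiomyocyte markers, as given with the comparison below. The part of the marker differences above in these values was not tested.

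**Figure D1:**
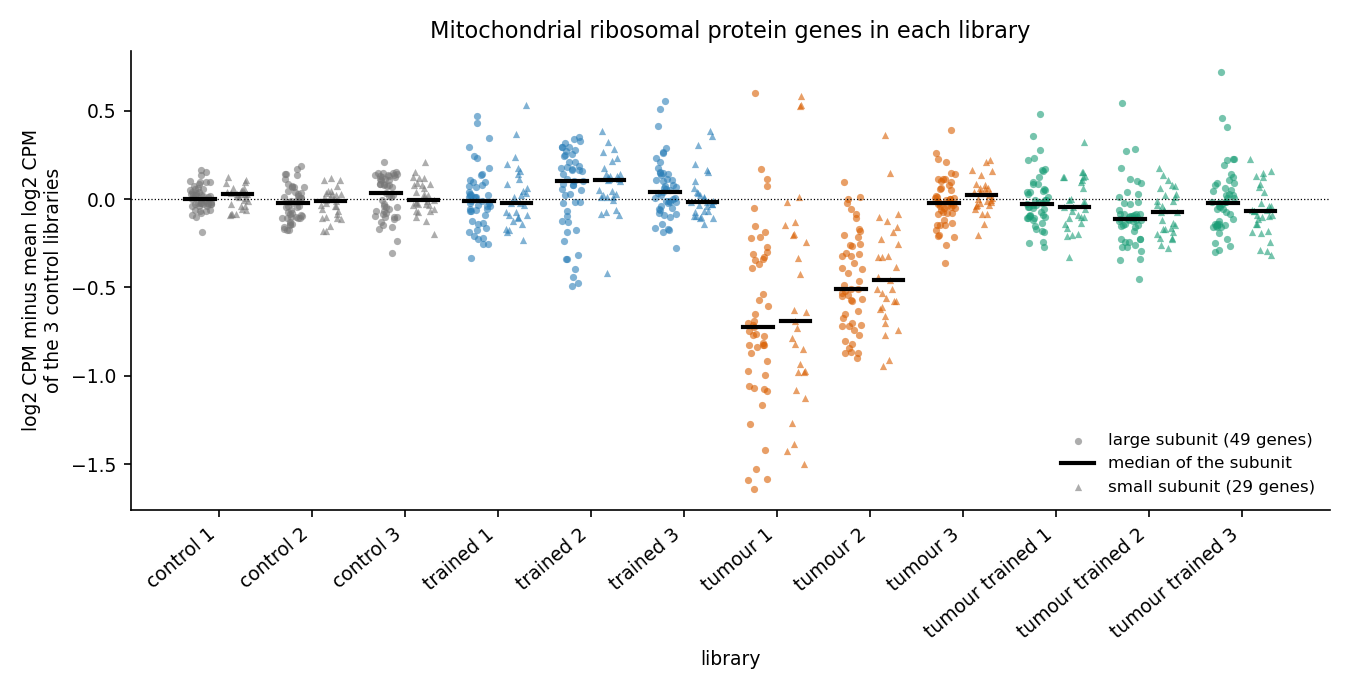
Each point is 1 of the 78 members in 1 library, circles for the large and triangles for the small subunit, and black lines are medians; the y axis is log2 TMM-scaled CPM minus the mean of the 3 control libraries. Tumour 1 (medians -0.73 and -0.69) and tumour 2 (-0.51 and -0.46) lie below the other 10 libraries on this scale, a direction that flips when libraries are scaled to the cardiomyocyte markers.

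The large and small subunits kept close to each other in every group. The large subunit median minus the small subunit median was 0 ± 0.04 (SD, n = 3) in the control libraries, 0.02 ± 0.03 in the trained, -0.04 ± 0.01 in the tumour and 0.01 ± 0.04 in the tumour trained libraries, and the tumour range (-0.05 to -0.04) lay just below the control range (-0.03 to 0.04) and overlapped with the tumour trained one. As a share of all counts, the large subunit took 0.368% ± 0.00594 in the control, 0.38% ± 0.0143 in the trained, 0.312% ± 0.0418 in the tumour and 0.366% ± 0.0143 in the tumour trained libraries. The small subunit took 0.187% ± 0.00201, 0.195% ± 0.008, 0.166% ± 0.0199 and 0.183% ± 0.00468 in the same order. The large subunit share in tumour 1 was 0.2816% (95% Wilson interval 0.2788% to 0.2845%) and the small subunit share 0.1533% (0.1512% to 0.1554%). In control 1 they were 0.3725% (0.3689% to 0.3762%) and 0.1888% (0.1862% to 0.1914%). Control 2, at 0.3615% and 0.1848%, lay below both of these intervals, which cover counting error only. The ratio of large to small subunit counts was 1.973 ± 0.0165 in the control, 1.95 ± 0.0568 in the trained, 1.875 ± 0.0337 in the tumour and 1.993 ± 0.0393 in the tumour trained libraries. The 3 tumour ratios (1.837, 1.887 and 1.901) lay below all control ratios (1.956 to 1.989) and overlapped with the trained ones (1.899 to 2.011). A symbol does not always give the place of the protein: those of Mrps30 and Mrps18a sit in the large subunit, and that of Mrps36 belongs to the 2-oxoglutarate dehydrogenase complex. With these 3 placed so, the medians of the fold changes in the tumour against control comparison were -0.37 (large, 51 genes) and -0.33 (small, 26 genes), against -0.37 and -0.34 by symbol.

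Levels between members can be compared only per length of transcript. Per kilobase of the longest GENCODE transcript, the members ran from 5.73 CPM (Mrpl47) to 437 CPM (Mrpl42). By CPM alone the highest means over the 12 libraries were those of Mrpl42 (291 CPM), Mrpl12 (203 CPM) and Mrpl30 (196 CPM), and the lowest those of Mrpl47 (19.3 CPM), Mrps18c (25.4 CPM) and Mrps22 (25.6 CPM). Mrpl42, a mitochondria-specific protein of the large subunit, was at 319, 316 and 286 CPM in the control libraries, 331, 218 and 369 CPM in the trained, 106, 168 and 332 CPM in the tumour and 360.1, 327 and 358 CPM in the tumour trained libraries. Its 2 lowest values were those of tumour 1 and tumour 2. Members were short: the median longest transcript had 1327.5 bases, against 3207 bases over all genes tested.

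Tumour against control asked how the hearts of mice given melanoma cells differ from those given saline. No member was called, that is, had an edgeR adjusted p below 0.05 over all genes tested, whereas 868 of the 12778 genes were (6.79%). On the TMM scale 71 of the 78 fitted log2 fold changes were below 0 (45 of 49 large, 26 of 29 small), with medians of -0.37 and -0.34 against 0.11 over all genes tested. When libraries were scaled to the cardiomyocyte markers instead, all 78 were above 0, with medians of 0.91 and 0.90 against 1.56 over all genes tested, and edgeR called 38 of them higher (23 large, 15 small) beside 71.3% of all genes. At an unadjusted edgeR p below 0.05, 26 members were lower (19 large, 7 small), beside 10.7% of all genes tested, and 1, Mrps10, was higher, beside 23.7%. Tumour values lay below every control library for 13 members (9 large, 4 small), 16.7% of them, against 11.8% of all genes tested, and above for 1 (1.28%, against 14.2%). DESeq2, run on the same genes, called 5 members lower (Mrpl34, Mrpl12, Mrps14, Mrpl4 and Mrpl10) where it called 5.12% of all genes lower. Without tumour 1 and 2, when the lone tumour library is assumed to vary like the other groups, edgeR called no member (1.4% of all genes) and the medians were -0.01 (large) and 0.03 (small). Without tumour 3, edgeR called 53 members lower and Mrps10 higher, where it called 22.8% of all genes lower and 30.2% higher.

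Mrpl34, a large subunit protein conserved from bacteria, had the largest fitted difference. It was at 68.0, 65.5 and 74.8 CPM in the control libraries, 66.05, 88.3 and 69.5 CPM in the trained, 23.1, 39.7 and 54.0 CPM in the tumour and 65.0, 50.7 and 62.5 CPM in the tumour trained libraries. All 3 tumour values lay below all 3 control values, and tumour trained 2 came in among them. The fold change was -0.84 ± 0.26 on the log2 scale (SE; adjusted p = 0.0634) by edgeR, with the smallest p among the members, and with library size in place of TMM it was called, with an edgeR adjusted p of 0.0483, where 2% of all genes were called lower. Mrps14, of the head of the small subunit, was at 37.3, 39.4 and 42.0 CPM in the control libraries, 40.7, 37.1 and 39.9 CPM in the trained, 22.4, 23.2 and 35.8 CPM in the tumour and 39.3, 34.0 and 37.8 CPM in the tumour trained libraries. Tumour 1 and tumour 2 were the low libraries and tumour 3 was just below the lowest control, for a fold change of -0.55 ± 0.18 on the log2 scale (SE; adjusted p = 0.0724) by edgeR. Mrpl4, whose bacterial counterpart lines the exit tunnel of the new chain, was at 162, 152 and 179 CPM in the control libraries, 144, 190.2 and 146 CPM in the trained, 67.8, 89.7 and 145 CPM in the tumour and 136, 129 and 137 CPM in the tumour trained libraries. Its fold change was -0.71 ± 0.24 on the log2 scale (SE; adjusted p = 0.0785) by edgeR, and tumour 3 was inside the range of the trained libraries. Mrps28, of the small subunit, was at 41.4, 40.1 and 46.2 CPM in the control libraries, 48.0, 46.6 and 41.6 CPM in the trained, 19.4, 25.4 and 40.1 CPM in the tumour and 40.8, 42.7 and 37.4 CPM in the tumour trained libraries. It had -0.59 ± 0.22 on the log2 scale (SE; adjusted p = 0.0946) by edgeR, with tumour 3 only just under the lowest control.

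**Figure D2:**
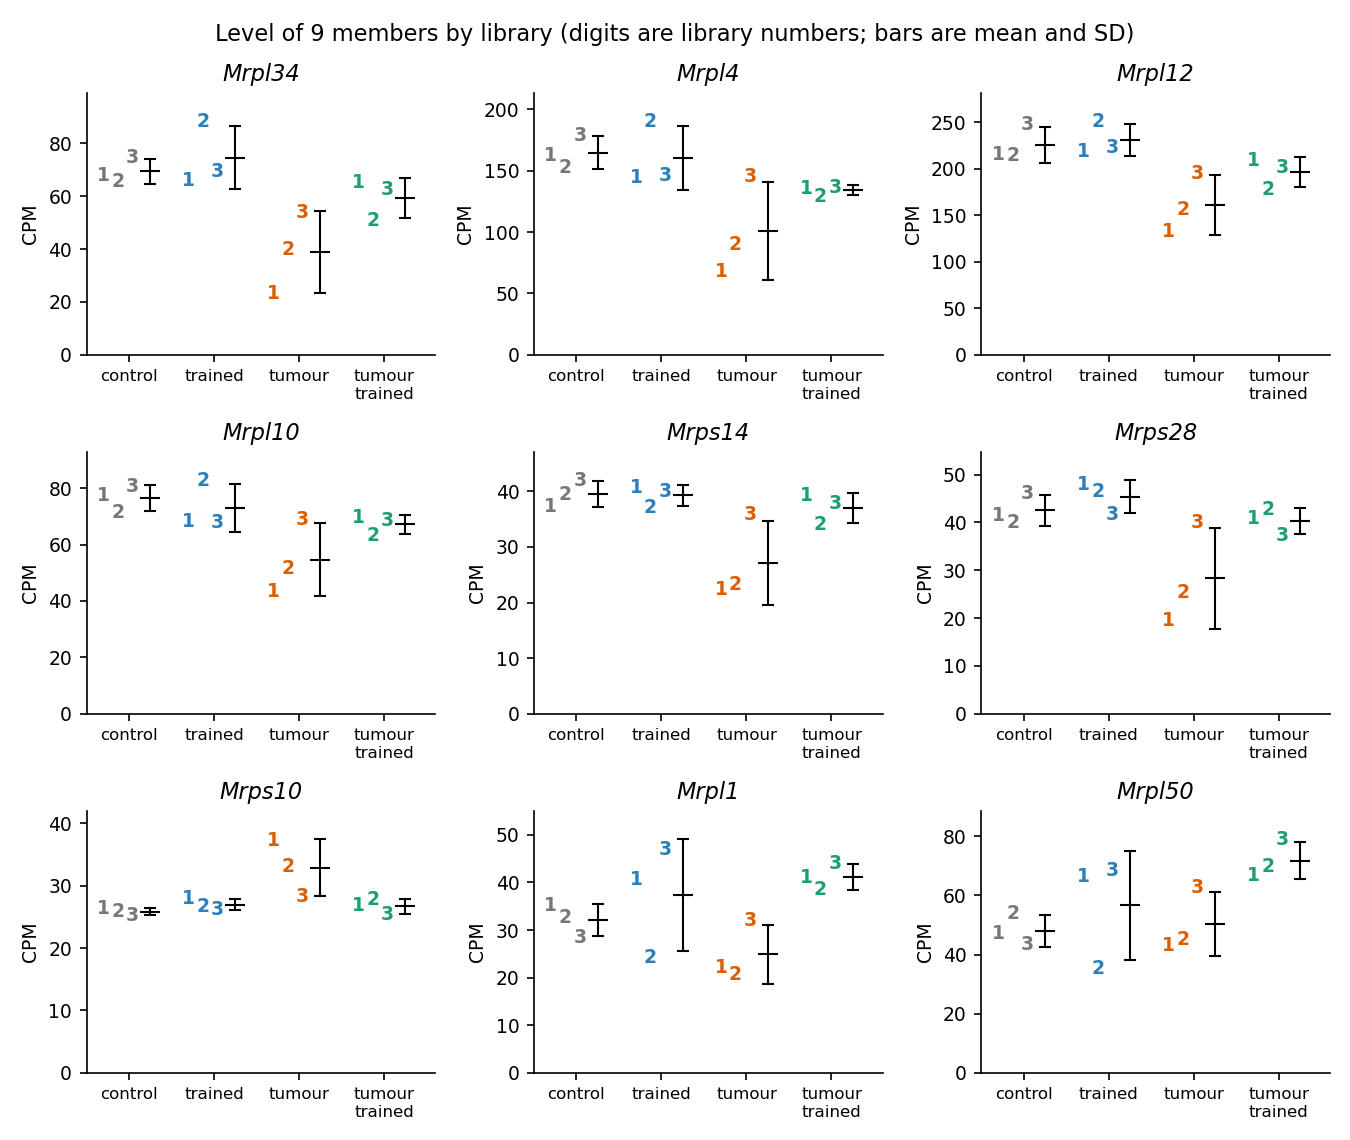
TMM-scaled CPM of 9 members; each digit is 1 library, named by its number, and the bar beside each group is the mean with its SD (n = 3). In the first 6 panels tumour 1 and 2 are the lowest libraries; Mrps10 has its 3 highest values in the tumour group, and the 3 tumour trained libraries lie above all control and tumour libraries for Mrpl1 and Mrpl50.

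The stalk of the large subunit, which draws in the translation factors that use GTP, is built from Mrpl12 on Mrpl10, next to Mrpl11. Mrpl12, which also binds the mitochondrial RNA polymerase, was at 215, 214 and 247 CPM in the control libraries, 219, 251 and 222 CPM in the trained, 132, 156 and 195 CPM in the tumour and 209, 178 and 202 CPM in the tumour trained libraries. Mrpl10 was at 77.5, 71.5 and 80.7 CPM in the control libraries, 68.3, 82.7 and 67.9 CPM in the trained, 43.5, 51.4 and 69.0 CPM in the tumour and 69.6, 63.2 and 68.6 CPM in the tumour trained libraries. Both had all 3 tumour libraries below all 3 control libraries, with fold changes of -0.48 ± 0.17 on the log2 scale (SE; adjusted p = 0.0812) and -0.49 ± 0.17 on the log2 scale (SE; adjusted p = 0.0817) by edgeR. The control libraries had 61.2 to 67.0 CPM of Mrpl11, and the tumour libraries 31.6, 43.9 and 61.9 CPM, so that its groups overlapped (-0.47 ± 0.20 on the log2 scale (SE; adjusted p = 0.131) by edgeR).

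None of the 3 genes linked to childhood cardiomyopathy was called on the TMM scale. Mrpl3, a large subunit protein conserved from bacteria, had 115 to 123 CPM in the control libraries and 64.8, 74.3 and 123.0 CPM in the tumour libraries (-0.44 ± 0.21 on the log2 scale (SE; adjusted p = 0.158) by edgeR). Mrpl44, which has a ribonuclease III fold, was at 54.6, 42.7 and 63.0 CPM against 61.9 to 64.5 CPM (-0.25 ± 0.15 on the log2 scale (SE; adjusted p = 0.244) by edgeR). Mrps22, specific to the mitochondrial small subunit, was at 23.9, 22.6 and 20.9 CPM in the control libraries, 32.5, 21.3 and 28.7 CPM in the trained, 32.4, 20.9 and 23.8 CPM in the tumour and 28.1, 25.4 and 26.3 CPM in the tumour trained libraries. Tumour 1 was higher than any control there, tumour 2 was level with the lowest control and tumour 3 was among the controls, for a fold change of 0.19 ± 0.20 on the log2 scale (SE; adjusted p = 0.472) by edgeR. Scaled to the cardiomyocyte markers, the values were 0.79 ± 0.36 for Mrpl3, 1.19 ± 0.48 for Mrpl44 and 1.80 ± 0.60 for Mrps22 (log2, ± SE). With that scaling edgeR called Mrpl44 and Mrps22 higher, beside 71.3% of all genes.

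Among the other mitochondria-specific proteins of the large subunit, Mrpl41 had -0.62 ± 0.24 on the log2 scale (SE; adjusted p = 0.102) by edgeR and Mrpl37 had -0.56 ± 0.23 on the log2 scale (SE; adjusted p = 0.115). Mrpl57 was at 26.5, 26.8 and 30.3 CPM in the tumour libraries against 30.4 to 37.1 CPM in the control libraries, with no overlap (-0.27 ± 0.14 on the log2 scale (SE; adjusted p = 0.181) by edgeR). Mrpl40, in a stretch deleted in DiGeorge syndrome, was at 35.9, 37.9 and 44.3 CPM against 39.6 to 42.9 CPM. Its fold change was -0.06 ± 0.14 on the log2 scale (SE; adjusted p = 0.785) by edgeR. Mrpl58, a peptidyl-tRNA hydrolase that frees stalled ribosomes and is also built into the large subunit, was at 47.1, 49.97 and 74.2 CPM against 64.2 to 76.9 CPM (-0.30 ± 0.18 on the log2 scale (SE; adjusted p = 0.241) by edgeR). Scaled to the cardiomyocyte markers, the log2 values were 0.55 for Mrpl41 and 0.64 for Mrpl37, neither called by edgeR. They were 1.14 for Mrpl57, 1.33 for Mrpl40 and 1.00 for Mrpl58, each called higher, beside 71.3% of all genes. Mrpl30, counterpart of a bacterial protein, had -0.53 ± 0.23 on the log2 scale (SE; adjusted p = 0.132) by edgeR, and Mrpl47, the lowest in level, had -0.06 ± 0.23 on the log2 scale (SE; adjusted p = 0.859).

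In the small subunit, Mrps12 lies at the centre where codons are read and Mrps5 and Mrps2 are proteins it shares with the bacterial subunit. Mrps12 had -0.42 ± 0.17 on the log2 scale (SE; adjusted p = 0.116) by edgeR, Mrps5 had -0.26 ± 0.14 on the log2 scale (SE; adjusted p = 0.189) and Mrps2 had -0.12 ± 0.12 on the log2 scale (SE; adjusted p = 0.445). Mrps16 and Mrps34, both linked to inherited mitochondrial disease, had -0.68 ± 0.28 on the log2 scale (SE; adjusted p = 0.12) and -0.38 ± 0.19 on the log2 scale (SE; adjusted p = 0.179) by edgeR. Mrps16 went from 46.2 to 52.9 CPM in the control libraries to 18.7 CPM in tumour 1 and 26.0 CPM in tumour 2, but tumour 3 had 49.3 CPM. Mrps35, a mitochondria-specific protein, had -0.45 ± 0.21 on the log2 scale (SE; adjusted p = 0.157) by edgeR, and Mrps30, of the large subunit despite its symbol, had -0.08 ± 0.15 on the log2 scale (SE; adjusted p = 0.694). Mrps36, the dehydrogenase complex protein, was at 41.1, 61.8 and 113 CPM in the tumour libraries against 109 to 120 CPM in the control libraries (-0.69 ± 0.28 on the log2 scale (SE; adjusted p = 0.112) by edgeR).

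The 3 Mrps18 genes encode relatives of 1 bacterial protein, with Mrps18a in the large and Mrps18b and Mrps18c in the small subunit. Mrps18a was at 94.2, 81.6 and 88.6 CPM in the control libraries, 82.8, 94.8 and 81.9 CPM in the trained, 41.6, 58.9 and 89.5 CPM in the tumour and 81.9, 78.3 and 79.7 CPM in the tumour trained libraries. Mrps18b was at 51.8, 46.8 and 45.8 CPM in the control libraries, 45.7, 49.7 and 47.2 CPM in the trained, 41.9, 45.4 and 47.5 CPM in the tumour and 45.1, 42.0 and 39.4 CPM in the tumour trained libraries. Mrps18c was at 24.3, 25.4 and 26.6 CPM in the control libraries, 29.2, 19.0 and 33.2 CPM in the trained, 20.2, 20.2 and 26.0 CPM in the tumour and 27.1, 26.5 and 26.9 CPM in the tumour trained libraries. Tumour 1 was the lowest library for Mrps18a, tumour trained 3 for Mrps18b and trained 2 for Mrps18c, and in none of them did tumour 3 lie below every control. The fold changes of tumour against control were -0.48 ± 0.22 on the log2 scale (SE; adjusted p = 0.151), -0.10 ± 0.12 on the log2 scale (SE; adjusted p = 0.548) and -0.20 ± 0.20 on the log2 scale (SE; adjusted p = 0.453) by edgeR, in the same order.

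A few members lay on the other side. Mrps10, of the head of the small subunit, was at 26.3, 25.9 and 25.2 CPM in the control libraries, 27.9, 26.7 and 26.2 CPM in the trained, 37.3, 33.1 and 28.3 CPM in the tumour and 26.9, 27.8 and 25.5 CPM in the tumour trained libraries. All 3 tumour libraries were above all 3 controls, tumour 3 by the least, and the fold change was 0.35 ± 0.13 on the log2 scale (SE; adjusted p = 0.0994) by edgeR. Mrps25, a mitochondria-specific protein of the small subunit, had 59.5 to 67.3 CPM in the control libraries and 93.7, 69.2 and 65.3 CPM in the tumour libraries (0.28 ± 0.15 on the log2 scale (SE; adjusted p = 0.204) by edgeR). Both keep their sign when libraries are scaled to the cardiomyocyte markers, where all members are above 0. Without tumour 3 the edgeR adjusted p of Mrps10 was 0.018, and without tumour 1 and 2 it was 0.761.

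**Figure D3:**
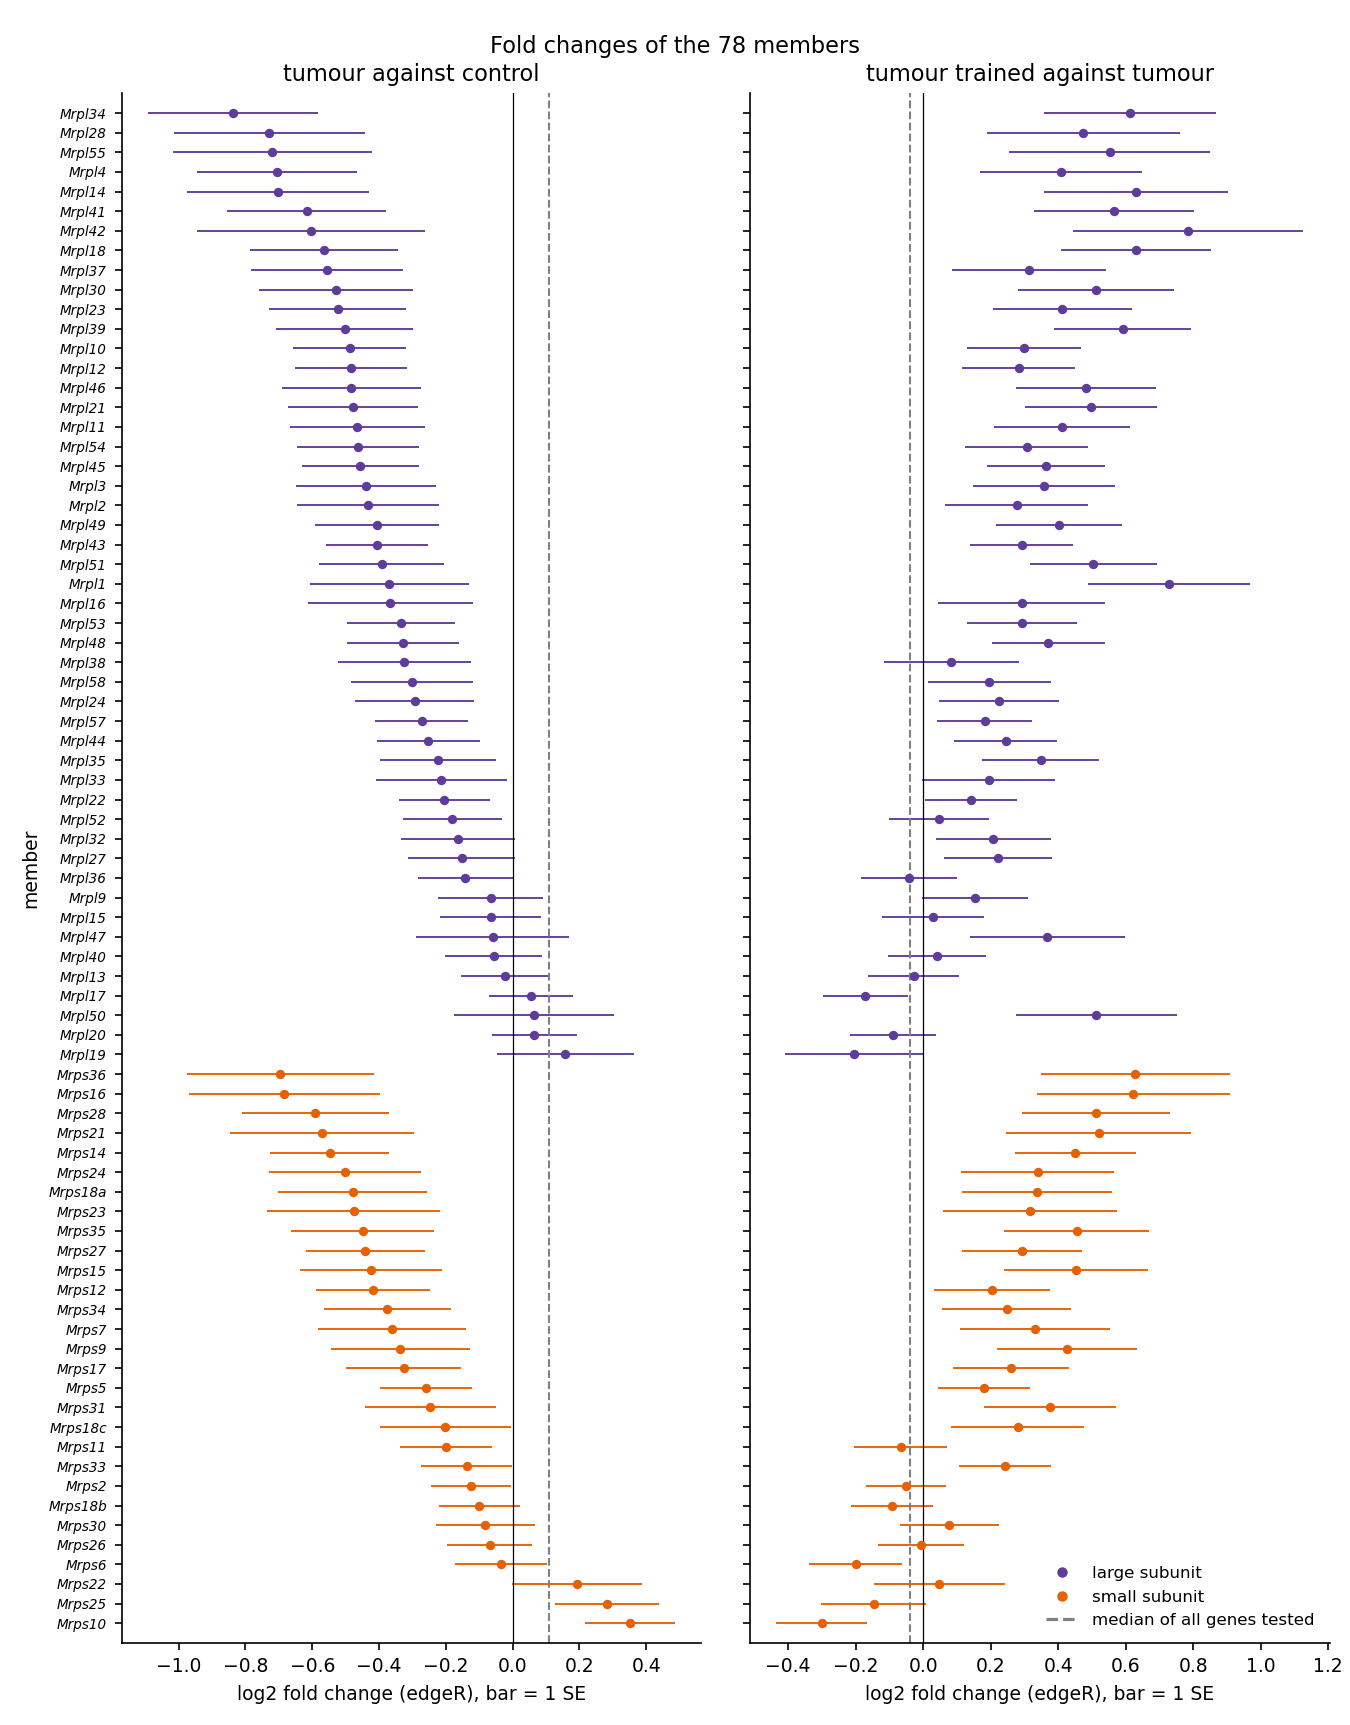
Fitted log2 fold change of each of the 78 members with a bar of 1 SE, for tumour against control (left) and tumour trained against tumour (right), ordered within each subunit by the left panel; the dashed line is the median of all genes tested. On the TMM scale 71 of 78 points lie below 0 at left and 66 of 78 above 0 at right, directions that flip for most members when libraries are scaled to the cardiomyocyte markers, and no member was called.

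Tumour trained against tumour asked how trained and untrained mice given melanoma cells differ, and it shares the tumour libraries with the comparison above. No member was called by edgeR, beside 9.05% of all genes tested. On the TMM scale 66 of the 78 fold changes were above 0 (44 of 49 large, 22 of 29 small), with medians of 0.31 and 0.28 against -0.04 over all genes. Scaled to the cardiomyocyte markers, all 78 were below 0, with medians of -0.89 and -0.90 against -1.40 over all genes, and edgeR called 21 lower (11 large, 10 small) beside 57.4% of all genes. At an unadjusted edgeR p below 0.05, 15 members were higher (12 large, 3 small), beside 10.2% of all genes, and Mrps10 was lower, beside 21.6%. Tumour trained values lay above every tumour library for 8 members (10.3%, against 13.5% of all genes tested) and below for 4 (5.13%, against 14.5%). DESeq2 called Mrpl1 higher, where it called 4.58% of all genes higher, and so did edgeR without trained 2, with 2.51% of all genes. Without tumour 1 and 2 no member was called (0.716% of all genes were), with medians of -0.02 and -0.10, and without tumour 3 edgeR called 53 higher and Mrps10 lower, where it called 21.7% of all genes higher and 28.1% lower. The melanocyte markers summed to 76.8 to 81.7 CPM in the 3 tumour trained libraries, so training and the melanoma transcripts of tumour 1 and 2 cannot be told apart in this comparison.

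Mrpl1, of the mobile arm of the large subunit beside the exit of transfer RNA, was at 35.1, 32.7 and 28.5 CPM in the control libraries, 40.6, 24.3 and 47.0 CPM in the trained, 22.1, 20.6 and 32.0 CPM in the tumour and 41.0, 38.6 and 44.0 CPM in the tumour trained libraries. The tumour trained libraries lay above all tumour and all control libraries, and trained 2 stood far below trained 1 and 3. The fold change of tumour trained against tumour was 0.73 ± 0.24 on the log2 scale (SE; adjusted p = 0.0718) by edgeR. Mrpl18, also of the large subunit, was at 129, 121 and 124 CPM in the control libraries, 137, 106 and 144 CPM in the trained, 59.9, 74.6 and 118 CPM in the tumour and 133, 123 and 136 CPM in the tumour trained libraries. It had 0.63 ± 0.22 on the log2 scale (SE; adjusted p = 0.0862) by edgeR, with tumour 1 and 2 low and tumour 3 next to the controls. Mrpl39, specific to the mitochondrial large subunit, was at 47.7, 55.0 and 88.8 CPM in the tumour and 84.8, 97.7 and 106 CPM in the tumour trained libraries (0.59 ± 0.20 on the log2 scale (SE; adjusted p = 0.0819) by edgeR). For Mrpl39 the tumour trained libraries overlapped with tumour 3, and for Mrpl1 and Mrpl18 they did not. Mrps10, Mrps6 and Mrpl17 had the smallest p below 0, with -0.30 ± 0.13 on the log2 scale (SE; adjusted p = 0.148), -0.20 ± 0.14 on the log2 scale (SE; adjusted p = 0.318) and -0.17 ± 0.13 on the log2 scale (SE; adjusted p = 0.354) by edgeR.

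For the genes followed above, the same edgeR comparison gave 0.61 ± 0.26 on the log2 scale (SE; adjusted p = 0.127) for Mrpl34, 0.45 ± 0.18 on the log2 scale (SE; adjusted p = 0.114) for Mrps14, 0.41 ± 0.24 on the log2 scale (SE; adjusted p = 0.247) for Mrpl4, 0.28 ± 0.17 on the log2 scale (SE; adjusted p = 0.255) for Mrpl12, 0.30 ± 0.17 on the log2 scale (SE; adjusted p = 0.235) for Mrpl10, and 0.41 ± 0.20 on the log2 scale (SE; adjusted p = 0.181) for Mrpl11. Mrpl42 had the largest fitted value, 0.79 ± 0.34 on the log2 scale (SE; adjusted p = 0.141), with the widest spread in the tumour group. In the cardiomyopathy genes the values were 0.36 ± 0.21 for Mrpl3, 0.24 ± 0.15 for Mrpl44 and 0.05 ± 0.20 for Mrps22 (log2, ± SE). Of the other large subunit genes named above, Mrpl41 had 0.57 ± 0.24, Mrpl30 0.51 ± 0.23, Mrpl47 0.37 ± 0.23, Mrpl37 0.31 ± 0.23, Mrpl58 0.20 ± 0.18, Mrpl57 0.18 ± 0.14 and Mrpl40 0.04 ± 0.14. Of the genes with an Mrps symbol, Mrps36 had 0.63 ± 0.28, Mrps16 0.62 ± 0.28, Mrps28 0.51 ± 0.22 and Mrps35 0.46 ± 0.21. Lower down came Mrps34 with 0.25 ± 0.19, Mrps12 with 0.20 ± 0.17, Mrps5 with 0.18 ± 0.14, Mrps30 with 0.08 ± 0.15 and Mrps2 with -0.05 ± 0.12. The Mrps18 genes had 0.34 ± 0.22 (Mrps18a), -0.09 ± 0.12 (Mrps18b) and 0.28 ± 0.20 (Mrps18c).

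Training alone, trained against control, gave no call among the members or among all genes (0%). No member had an unadjusted edgeR p below 0.05, beside 2.18% of all genes, and DESeq2 called no member, beside 0.0235% of all genes. The medians were 0.03 and 0.04 for the large and small subunits, and -0.02 and -0.02 without trained 2. Mrps22, Mrpl52 and Mrpl32 had the smallest p above 0, with 0.29 ± 0.20, 0.18 ± 0.15 and 0.21 ± 0.17 (log2, ± SE), and Mrps12, Mrps2 and Mrpl10 below 0, with -0.12 ± 0.17, -0.06 ± 0.12 and -0.07 ± 0.17. Only Mrps31, named for this reason, lay above every control library (1.28% of members, against 4.04% of all genes tested), and no member lay below (0%, against 5.44%). Trained 2 differed from trained 1 and 3, as described with the base composition below.

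Tumour trained against trained, the tumour difference within trained mice, also gave no call among the members or among all genes (0%). No member had an unadjusted edgeR p below 0.05, beside 1.17% of all genes, and DESeq2 called none, beside 0.0235% of all genes. Of the 78 fold changes, 64 were below 0 (36 of 49 large, 28 of 29 small), against 6261 of the 12778 genes tested. The medians were -0.11 and -0.09, against 0.01 over all genes, and -0.06 and -0.07 without trained 2. Tumour trained libraries lay below all 3 trained libraries for 14 members (8 large, 6 small), 17.9% of them against 8.05% of all genes tested, and above for none (0%, against 7.9%). Mrpl52 had the smallest p, with -0.32 ± 0.15 (log2, ± SE), at 45.4, 49.96 and 42.2 CPM in the trained and 33.8, 36.9 and 39.7 CPM in the tumour trained libraries. Mrps11 and Mrps6 followed, with -0.27 ± 0.14 and -0.25 ± 0.14. Mrpl50, Mrpl47 and Mrpl35 had the smallest p above 0, with 0.34 ± 0.24, 0.20 ± 0.23 and 0.11 ± 0.17. The medians were closer to 0, at -0.03 and -0.01, when libraries were scaled to the cardiomyocyte markers.

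Tumour trained against control gave no call among the members or among all genes (0%). Of the members, Mrpl50 had an unadjusted edgeR p below 0.05, beside 6.46% of all genes, and DESeq2 called no member, beside 0.0548% of all genes. The medians of -0.05 and -0.07 became 0.03 and 0.02 when libraries were scaled to the cardiomyocyte markers. Mrpl50, specific to the mitochondrial large subunit, was at 47.0, 53.9 and 43.3 CPM in the control libraries, 66.3, 35.2 and 68.3 CPM in the trained, 43.1, 45.2 and 62.7 CPM in the tumour and 66.7, 69.7 and 78.9 CPM in the tumour trained libraries. The 3 tumour trained libraries were above all controls and all tumour libraries, and above trained 1 and 2. Its fold change was 0.58 ± 0.24 on the log2 scale (SE; adjusted p = 0.766) by edgeR. Tumour trained libraries lay above every control for 8 members (10.3%, against 21.9% of all genes tested) and below every control for 13 (16.7%, against 17.4%). Mrpl1 and Mrpl47 came next above 0, with 0.36 ± 0.24 and 0.31 ± 0.23, and Mrps11, Mrps6 and Mrps18b below 0, with -0.27 ± 0.14, -0.23 ± 0.14 and -0.19 ± 0.12 (log2, ± SE).

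The interaction, whether training moved the members differently with and without tumour, gave no call among them, beside 3 of 12778 genes (0.0235%). No member had an unadjusted edgeR p below 0.05, beside 14.4% of all genes, and DESeq2 called no member, beside 2.09% of all genes. The medians were 0.31 (large) and 0.24 (small), against -0.08 over all genes, and -0.87 and -0.97 with cardiomyocyte scaling. Mrpl39, Mrpl51 and Mrpl18 had the smallest p above 0, with 0.56 ± 0.29, 0.50 ± 0.27 and 0.58 ± 0.31, and Mrps10, Mrpl17 and Mrps25 below 0, with -0.36 ± 0.19, -0.25 ± 0.18 and -0.28 ± 0.22 (log2, ± SE). Without tumour 3, 33 members were called higher, where 12.4% of all genes were, and without tumour 1 and 2 the medians were -0.06 and -0.13.

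Base composition moved with the libraries. Over the 78 members, the difference to control of a library was set against the GC content of the longest transcript, with Spearman's rho as a description, since the members of 1 library share its preparation and depth. The rho was -0.491 in trained 1, 0.515 in trained 2 and -0.493 in trained 3, so that trained 2 had the opposite sign. In the tumour libraries it was -0.356, -0.263 and -0.42, and in the tumour trained libraries -0.564, -0.523 and -0.615. Over 12594 genes tested that have a transcript the values were -0.512, 0.552 and -0.543 in the trained, -0.275, -0.125 and -0.0929 in the tumour and -0.526, -0.569 and -0.622 in the tumour trained libraries. The members were thus close to all genes in the trained and tumour trained libraries, and further from 0 than all genes in the tumour libraries, tumour 3 above all; these differences were not tested. The 20 members of lowest GC (39.6% to 46.4%) had medians of 0.11, 0.03 and 0.08 in the tumour trained libraries, and the 20 of highest GC (54.0% to 60.6%) had -0.10, -0.16 and -0.15. Mrpl50 and Mrpl1, the highest above control there, have 42.3% and 41.6% GC. Of the members described with tumour against control, Mrpl34, Mrpl4 and Mrpl12 have 58.3%, 60.1% and 56.1%. Mrps14, described with them, has 39.6%, the lowest of the 78. In tumour 1 both ends were below 0, at -0.35 (lowest GC) and -0.89 (highest GC), and in tumour 2 at -0.32 and -0.55. The part of GC in these differences was not tested.

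**Figure D4:**
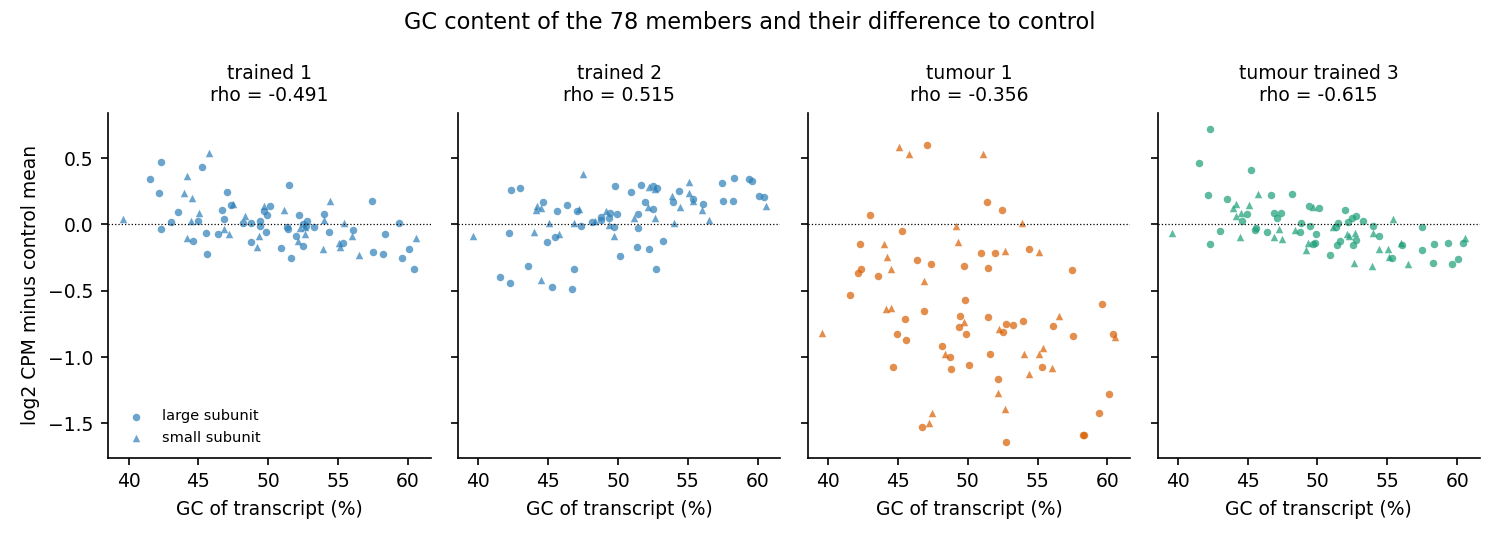
GC content of the longest transcript of each of the 78 members (x axis, percent) against its log2 TMM-scaled CPM minus the control mean (y axis) in 4 of the libraries; circles are large and triangles small subunit genes. Members rich in GC are lower in trained 1 and tumour trained 3 (rho -0.491 and -0.615) and higher in trained 2 (rho 0.515); in tumour 1 most members lie below 0 along the whole range.

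The rest of the mitochondrial translation apparatus was read from lists of its own. The 5 subunits without an Mrp symbol (Dap3, Ptcd3, Chchd1, Aurkaip1 and Gadd45gip1) had medians of -0.78, -0.54 and 0.04 in tumour 1, 2 and 3 on the log2 scale to control, close to the -0.71, -0.49 and -0.01 of the members computed the same way. None of the 5 was called in tumour against control or in tumour trained against tumour, beside 6.79% and 9.05% of all genes tested. Gadd45gip1 had -0.43 ± 0.17 and Chchd1 -0.45 ± 0.21 (log2, ± SE; edgeR adjusted p of 0.113 and 0.157). The 28 genes of ribosome assembly and rRNA modification had -0.40, -0.43 and 0.07, with 0 called. The smallest p there belonged to Trub2, a pseudouridine synthase, with 0.50 ± 0.16, and Mettl17, an assembly factor, with -0.90 ± 0.30 (log2, ± SE; edgeR adjusted p of 0.0718 and 0.078). Of 17 translation factors 15 were tested, and Tsfm, the exchange factor of the elongation factor Tu, fell from 38.2 ± 0.601 CPM in the control to 24.0 ± 4.83 CPM in the tumour libraries (SD, n = 3; log2 fold change -0.68 ± 0.17, edgeR adjusted p = 0.046). On this TMM scale Tsfm was the only one of the 15 called, beside 6.79% of all genes tested. Its values of 20.3, 22.2 and 29.4 CPM in the tumour libraries show tumour 3 nearest to the control. Mrrf, which recycles ribosomes, had -0.62 ± 0.27 (edgeR adjusted p = 0.129).

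The 17 mitochondrial aminoacyl-tRNA synthetases, which load the transfer RNAs, had medians of -0.40, -0.34 and -0.01 in the tumour libraries, with 0 called. Lars2 had -0.53 ± 0.19 and Aars2 -0.59 ± 0.23 (log2, ± SE; edgeR adjusted p of 0.0838 and 0.106). The 6 genes of mitochondrial transcription had -0.79, -0.30 and 0.01, with 0 called, and 0.32, 0.31 and 0.37 in the tumour trained libraries. Mterf2 and Tefm led them with -0.67 ± 0.37 and -0.50 ± 0.27 (edgeR adjusted p of 0.213 and 0.206). The 88 oxidative phosphorylation genes, whose products work beside the proteins that these ribosomes make, had medians of -1.64, -0.81 and 0.00 in the 3 tumour libraries on the TMM scale. In tumour against control 87 of them were below 0 with 0 called, and Ndufa4l2 and Sdhaf4, an assembly factor that the symbol pattern also takes, came first with -0.84 ± 0.23 and -0.78 ± 0.28 (edgeR adjusted p of 0.0516 and 0.0857). The 20 cardiomyocyte markers had -2.33, -0.86 and -0.08 on that scale. The alternative scaling sets their summed level equal in all libraries, so the distance of each list from control depends on the scaling. It applies 1 factor to each library and so moves all lists of that library together, leaving the gaps between them nearly unchanged.

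The 81 cytosolic ribosomal protein genes lay on the opposite side, with 0.73, 0.28 and 0.00 in the tumour libraries. In tumour against control 77 of 81 were above 0, and 1 gene was called, beside 6.79% of all genes tested. It was Rpl3, a large subunit protein, with 1.47 ± 0.39 (log2, ± SE, edgeR adjusted p = 0.0483). Rps18 followed with 0.73 ± 0.22 (edgeR adjusted p = 0.0604). The control libraries had 158 to 168 CPM of Rpl3 and the tumour libraries 741, 438 and 161 CPM, so tumour 3 was at the control level. Genes of this family have many near-identical processed copies, and how reads were shared among them is not given in the sources used here. Both kinds of ribosome thus stood on opposite sides of control in tumour 1 and 2 under TMM scaling, whereas scaled to the cardiomyocyte markers the members too were above control. The latter scaling moves both lists of a library together, so the gap between them stays nearly the same. A test of the difference between the lists was not made, and the part of melanoma and cardiomyocyte transcripts in it was not tested.

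**Figure D5:**
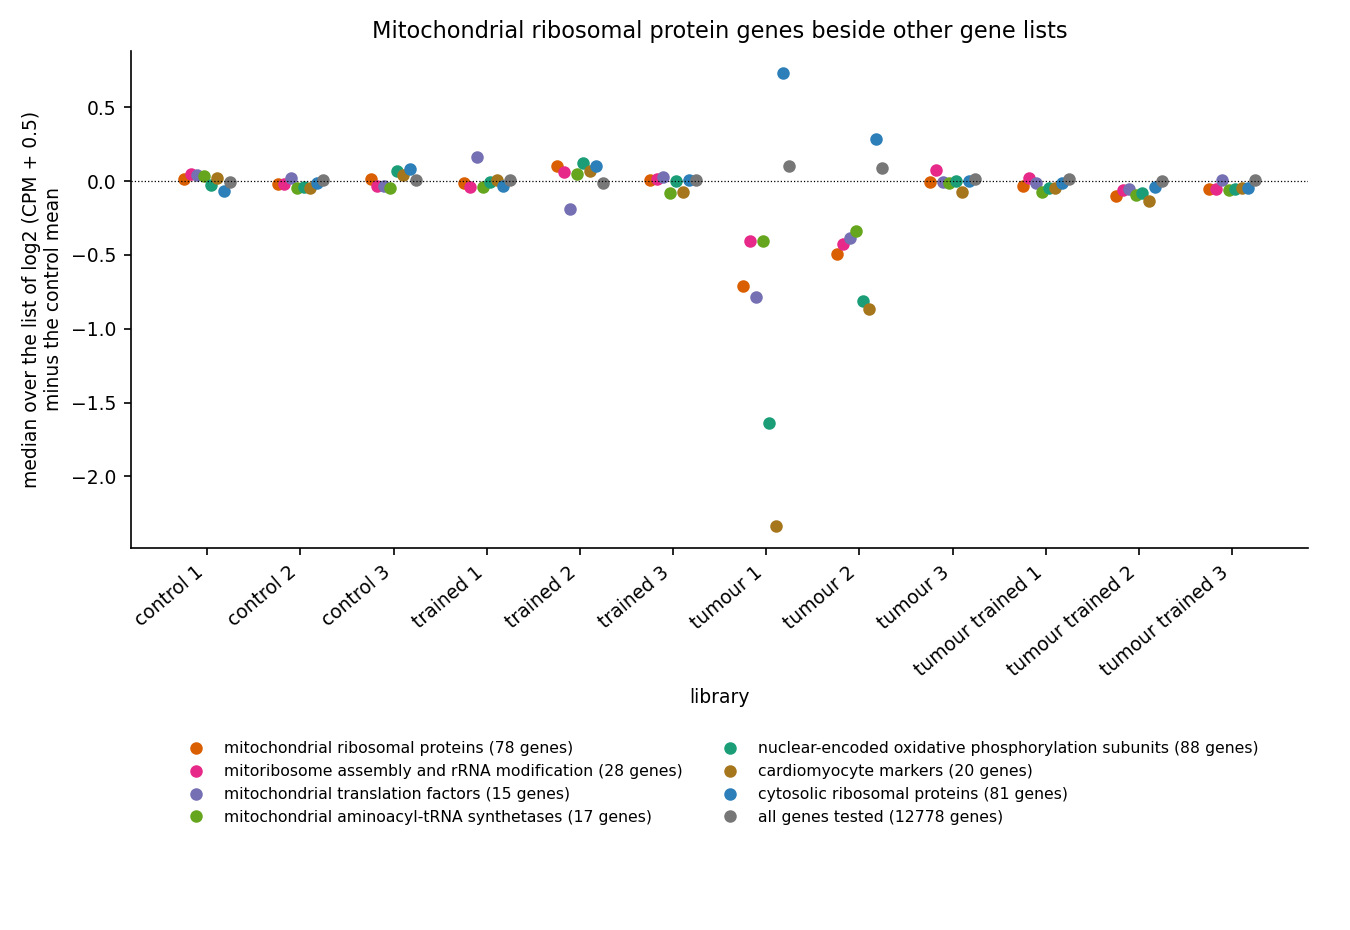
Each point is the median over a gene list, in 1 library, of log2 (TMM-scaled CPM + 0.5) minus the mean of the 3 control libraries. In tumour 1 the mitochondrial ribosomal proteins (-0.71) lie between the cytosolic ones (0.73) and the cardiomyocyte markers (-2.33), and in tumour 3 the 8 lists drawn lie between -0.08 and 0.07; scaled to the cardiomyocyte markers the mitochondrial ribosomal proteins are above control instead.

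A feature of position was more frequent among the members than among all genes. In the GENCODE annotation (GRCm38), 18 of 78 (23.1%) start within 1000 bases of a coding gene on the opposite strand that runs away from them, against 9.9% of genes tested and 6.8% of all coding genes. The 16 partners that were tested had a median fold change of 0.10 in tumour against control, close to the 0.11 over all genes tested. Their members had -0.40 (log2, TMM scale). Of these partners 9 were above 0, and 1 was called, beside 6.79% of all genes tested. It was Ncapd2, a condensin subunit whose start lies 100 bases from that of Mrpl51, with 1.86 (edgeR adjusted p = 0.0469) beside -0.39 for Mrpl51. Mrpl30 had -0.53 and its partner Mitd1, at 66 bases, 1.72 (edgeR adjusted p = 0.0713). In other pairs, named after their values were seen like that of Mrpl30, both were below 0, as for Mrps27 (-0.44) and Ptcd2 (-0.62), or Mrpl54 (-0.46) and Apba3 (-0.73), none of them called. Exons of 23 members overlap those of another coding gene, 20 of them on the opposite strand, including Mrpl46 and Mrps11, which overlap each other. The strand setting of the counting was not stated in the labels, so how reads in the overlapping stretches were assigned is not known.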

How the data were processed

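RNA from mouse hearts (12 libraries, 3 in each of 4 groups) was sequenced, and the authors deposited 1 table of estimated counts per gene; the submitters' processing notes list the aligner HISAT2 (2.2.1), the counter featureCounts, and 2 builds, mm10 and GRCm39. Neither annotation nor strandedness nor filtering is given in the sources used here. Values that were not whole (7.09% to 8.92% per library) were rounded. Counts were tested with edgeR 4.0.16 (quasi-likelihood test, TMM scaling, genes with low counts removed by group, 12 libraries in 1 fit, 8 residual degrees of freedom, R 4.3.3), with Benjamini-Hochberg adjustment over 12778 genes and a threshold of 0.05. The SE is the fold change divided by the square root of F. DESeq2 1.42.0, other scalings, filters and left-out libraries were alternatives. The procedure was tested on simulated data with even groups and a smaller spread than these data. That test does not cover a group as uneven as tumour. Total counts were 8843909 to 13344847, at which 3 counts are 0.225 to 0.339 CPM; Wilson intervals cover counting error only. Lengths and GC come from GENCODE (GRCm38).

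Members, gene lists and tests were chosen with earlier results of these data known. Named members are a panel chosen by role, the 3 of smallest p in each direction of each comparison, the 3 of highest and lowest CPM and, for other lists, the 2 of smallest p. Correlations between libraries showed no pairing by replicate number, which does not exclude one.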

Additional observations from a re-analysis of the deposited data

How the results depend on the processing

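Over the alternatives, 232 subunit medians stayed within the replicate spread and 20 moved beyond it, and 111 counts of called members stayed within 1.5 times while 9 did not. Alternatives that moved them follow; for each of them the cause was not tested beyond what the setting itself changes. Percentages here are the shares of all genes called in the same direction. Called members in tumour against control were 5 with DESeq2 (5.12%), 1 with library size alone (2%) and 38 with scaling to the cardiomyocyte markers (71.3%). Leaving out 1 library gave 0 to 54, with 54 without tumour 3 (22.8% of all genes lower, 30.2% higher). In tumour trained against tumour the called members were 1 with DESeq2 (4.58%) and 21 with cardiomyocyte scaling (57.4%). Leaving out 1 library gave 0 to 54 there, with 54 without tumour 3 (21.7% of all genes higher, 28.1% lower) and 1 without trained 2 (2.51%). In the interaction the called members were 0 to 33, with 33 without tumour 3 (12.4%).

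Scaled to the cardiomyocyte markers, the large and small subunit medians were 0.91 and 0.90 in tumour against control, -0.89 and -0.90 in tumour trained against tumour, -0.028 and -0.007 in tumour trained against trained, 0.034 and 0.02 in tumour trained against control, and -0.87 and -0.97 in the interaction. Without tumour 1 and 2 the medians were -0.014 (large) and 0.033 (small) in tumour against control. In tumour trained against tumour they were -0.021 and -0.10, and in the interaction -0.06 and -0.13. The large subunit medians of the first and second of these comparisons were counted as within the replicate spread, although they came from -0.369 and 0.307. That spread includes tumour 1 and 2 themselves (SD of the large subunit median over the tumour libraries 0.36), so the count does not show that these medians were stable. In tumour trained against control the small subunit median was -0.105 with DESeq2 size factors, -0.105 with DESeq2 and -0.035 with library size alone, and -0.118 to -0.053 on leaving out 1 library. Leaving out 1 library gave -0.64 to -0.26 (large) and -0.62 to -0.19 (small) in tumour against control, 0.16 to 0.53 and 0.12 to 0.50 in tumour trained against tumour, and 0.17 to 0.51 and 0.10 to 0.48 in the interaction. It gave -0.02 to 0.045 and -0.018 to 0.035 in trained against control and -0.131 to -0.061 and -0.127 to -0.066 in tumour trained against trained. The values of -0.02 and -0.018, and of -0.061 and -0.066, came without trained 2.

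Of the named members, 13 values that passed the threshold under cardiomyocyte scaling had the opposite sign. In tumour against control these were Mrpl40 (1.33), Mrpl44 (1.19), Mrpl47 (1.37), Mrpl57 (1.14), Mrpl58 (1.00), Mrps18b (1.31), Mrps18c (1.17), Mrps2 (1.32), Mrps30 (1.27) and Mrps5 (1.10). In tumour trained against tumour they were Mrpl40 (-1.25), Mrps30 (-1.20) and Mrps5 (-1.09). With cardiomyocyte scaling edgeR called 71.3% of all genes higher in the first of these comparisons and 57.4% lower in the second. Library size alone shifted the median of all genes to 0.32 in tumour against control and to -0.22 in tumour trained against tumour, from 0.11 and -0.04. Counting Mrps30, Mrps18a and Mrps36 by the place of the protein was chosen after seeing the data and moved no median beyond the replicate spread.

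With the replicate number as a block, no member was called in any comparison (0), and the medians were -0.41 and -0.37 in tumour against control. The block lowered the calls over all genes from 868 to 16 there and from 1156 to 18 in tumour trained against tumour. Libraries with the same number correlated at -0.268 to 0.241 (3 of 18 pairs above 0.1), and 1 of 12 libraries correlated best with its own number. These correlations showed no pairing by number, but they cannot exclude one.

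The 3 tumour libraries differ more among themselves than those of any other group in both subunit medians. The lowest count of a member in a library was 137, so for members with few counts counting error is part of the spread. Leaving out any 1 control, trained or tumour trained library, or tumour 2, left 4 to 24 calls over all genes in tumour against control (868 with all libraries). There were 0 members among them. Without tumour 1 the calls over all genes were 199, and without tumour 3 they were 7043. In tumour trained against tumour (1156 with all libraries) the same omissions left 3 to 8 calls, except 1242 without trained 2. Without tumour 1 that comparison had 111 and without tumour 3 it had 6619. The shares of all genes called thus depend on the libraries used.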
